A study of Mus musculus with 5 samples.

Results

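The dentate gyrus (DG) and the striatum (STR) of the adult mouse brain were compared over 11237 protein-coding genes. The genes were selected by 2 values of the expression table itself. They had to reach 1 FPKM (read fragments per kilobase of a transcript, divided by the library's total) in the DG or the STR, and their levels in the 2 samples of the subventricular zone (SVZ) had to lie less than 1 apart on log2(FPKM + 1). Of 20340 coding genes in the table, 13002 reached the level, and 11237 of those also met the SVZ limit. The SVZ gap and the minimum level are the selection rule and are given here as a description only. The rule did not use the sign of the DG to STR difference, but it did use both levels, and it kept or dropped genes through a gap that moves with that difference, as shown further down.

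All animals were adult male wild-type C57BL/6 mice, whose brain regions were dissected under the microscope and frozen at once. Poly(A) RNA of the SVZ, the olfactory bulb (OB) and the DG, the neurogenic regions of the design, was sequenced beside that of the STR, the non-neurogenic control. The SVZ had 2 biological replicates and the DG, STR and OB had 1 sample each. The labels do not say how many animals went into a sample.

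The granule neurons of the dentate gyrus are glutamatergic cells whose axons, the mossy fibres, contact CA3 pyramidal neurons, and new granule neurons are added in adult life from stem cells at the inner edge of the layer. Most neurons of the striatum are medium spiny projection neurons, which use GABA, carry dopamine receptors and make opioid or tachykinin peptides. They are generally divided into a direct-pathway type with the D1 dopamine receptor and an indirect-pathway type with the D2 receptor. The SVZ lies against the striatum, so dissected SVZ can hold striatal neurons as well.

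With 1 DG and 1 STR library the difference has no replicate check, so no p-value is given anywhere, and genes are described by size. Every difference below is DG minus STR on log2(FPKM + 1), where 1 unit is a doubling for well-expressed genes and the change of genes near 1 FPKM is understated. The 2 SVZ samples are the only replicate pair, and the selection rule limits the distance between them, so it gives no measure of error for the members. In dissected tissue a lower level can come from fewer cells of a type or from less RNA per cell, and these cannot be told apart.

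Promoter sequences are shown for the genes with the largest difference each way that have a single promoter window in RefSeq, because these genes carry the contrast between the regions. Each window runs from 250 bases before to 50 bases after the start of transcription on build GRCm38.p6, whereas all gene positions below are those deposited on mm9. C1ql2 (chr1:120340332-120340631, plus strand) and Neurod2 (chr11:98329596-98329895, minus strand) were far higher in the DG. Scn4b (chr9:45138374-45138673, plus strand) and Meis2 (chr2:116064570-116064869, minus strand) were far lower in the DG. Capitals mark the motifs that were searched for on both strands, at any position in the window. They were the cyclic AMP response element (TGACGTCA), the E-box of one kind (CAGCTG) and the E-box of another kind (CAGATG). The others were TGACAG, which Meis factors are known to bind, and TATAAA, the letters of a TATA box. No distance from the start was required, so a TATAAA match need not be a TATA box.
C1ql2: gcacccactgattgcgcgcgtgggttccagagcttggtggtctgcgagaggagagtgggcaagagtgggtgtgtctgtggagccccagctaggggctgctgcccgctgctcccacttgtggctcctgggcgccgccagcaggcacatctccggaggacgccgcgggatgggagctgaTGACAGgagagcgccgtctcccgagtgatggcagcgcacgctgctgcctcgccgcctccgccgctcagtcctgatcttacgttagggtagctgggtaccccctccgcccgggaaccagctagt
Neurod2: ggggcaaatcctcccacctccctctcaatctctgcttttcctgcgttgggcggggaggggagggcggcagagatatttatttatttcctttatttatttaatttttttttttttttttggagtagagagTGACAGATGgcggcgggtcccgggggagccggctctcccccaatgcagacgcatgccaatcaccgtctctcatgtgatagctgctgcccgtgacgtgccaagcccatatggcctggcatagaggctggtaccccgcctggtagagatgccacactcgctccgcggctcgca
Scn4b: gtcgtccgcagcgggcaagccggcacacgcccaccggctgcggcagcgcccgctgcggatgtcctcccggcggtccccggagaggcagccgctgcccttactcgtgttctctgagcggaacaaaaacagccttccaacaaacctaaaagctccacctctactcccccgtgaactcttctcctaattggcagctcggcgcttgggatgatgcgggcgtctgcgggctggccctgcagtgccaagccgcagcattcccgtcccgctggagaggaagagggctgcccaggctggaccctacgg
Meis2: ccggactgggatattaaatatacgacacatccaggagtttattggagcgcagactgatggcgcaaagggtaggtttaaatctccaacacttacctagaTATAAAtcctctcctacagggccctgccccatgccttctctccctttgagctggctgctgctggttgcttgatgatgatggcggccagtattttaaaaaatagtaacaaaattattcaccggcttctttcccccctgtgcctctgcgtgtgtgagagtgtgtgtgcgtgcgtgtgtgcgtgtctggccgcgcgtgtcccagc

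The C1ql2 window held 1 TGACAG and a GC content of 67.3%. The Neurod2 window held 1 TGACAG whose last letters overlap with 1 CAGATG, so that they form a single run of capitals, and 55.3% GC. None of the 5 motifs was found in the Scn4b window, with 66.3% GC, and the Meis2 window held 1 TATAAA and 51% GC. Over all 32851 windows of the RefSeq table, TGACAG occurred in 19.2%, CAGATG in 17.2% and TATAAA in 13.6%. Windows could be matched for 8857 members. CAGCTG was present in 15.7% of the 319 windows of genes at least 2 units higher in the DG, in 22.9% of the 240 windows of genes at least 2 units lower, in 15.6% of all member windows and in 16.3% of all windows. The cyclic AMP response element was in 0.627% of the windows of the higher genes, in none of the 240 windows of the lower genes, and in 2.98% of member windows. Several windows can belong to 1 gene, and a match of letters describes the window only. Median GC content was 62% for the higher genes, 58% for the lower genes and 60.7% for all members.

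Most members had similar levels in both regions. The difference was under 1 unit for 79.2% of the 11237 genes, its median was 0.19, and the levels of DG and STR correlated at r = 0.85 across genes, which are not independent replicates. At least 2 units higher in the DG were 321 genes (2.86%), and at least 2 units lower were 204 (1.82%). At 1 unit or more the counts were 1491 higher (13.3%) and 845 lower (7.52%). The genes higher in the DG had a median level of 28.4 FPKM there and 2.68 in the STR, and those lower had 1.67 and 23.7. In the plot of levels in both regions the granule, striatal and oligodendrocyte lists separate on either side of the diagonal.

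**Figure D1:**
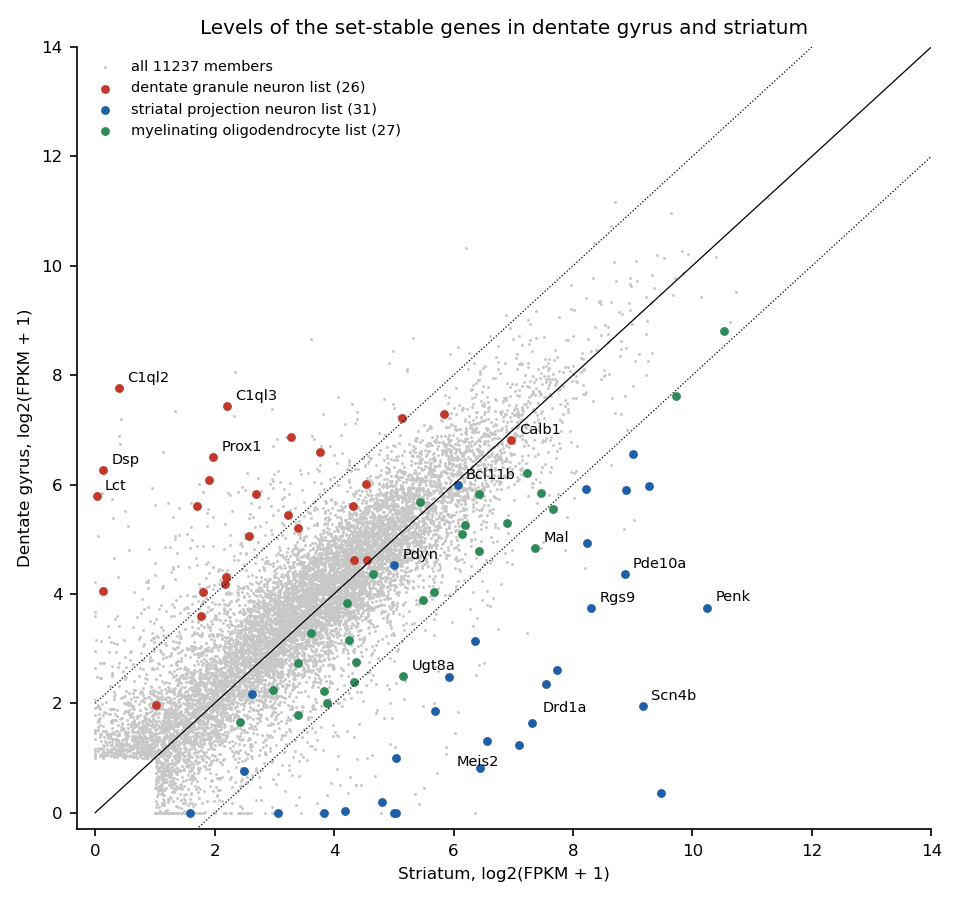
Each point is 1 of the 11237 members, with its striatal level on the x axis and its dentate gyrus level on the y axis, both log2(FPKM + 1). The solid line marks equal levels and the dotted lines 2 units either way, past which lie 321 genes above and 204 below, and the coloured points are 3 marker lists with their number of members.

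The SVZ limit narrowed, but did not remove, a pattern that runs with the libraries. Gapdh, a glycolytic enzyme that the limit left out, was listed at 414 FPKM in the DG, 457 in SVZ replicate 1 and 563 in the OB. In the STR it was at 39.5 and in SVZ replicate 2 at 32.4. Among the members, the 3356 genes that were 0.5 to 1 units higher in SVZ replicate 1 had a median DG minus STR difference of 0.63. The 4510 genes 0 to 0.5 higher had 0.19, the 2890 genes 0 to 0.5 lower had -0.22, and the 481 genes 0.5 to 1 lower had -0.70. Across genes, the difference correlated with the SVZ gap at r = 0.39 over the 11237 members. The labels name no library set, so the pairing of the DG with SVZ replicate 1 and of the STR with replicate 2 comes from these values.

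**Figure D2:**
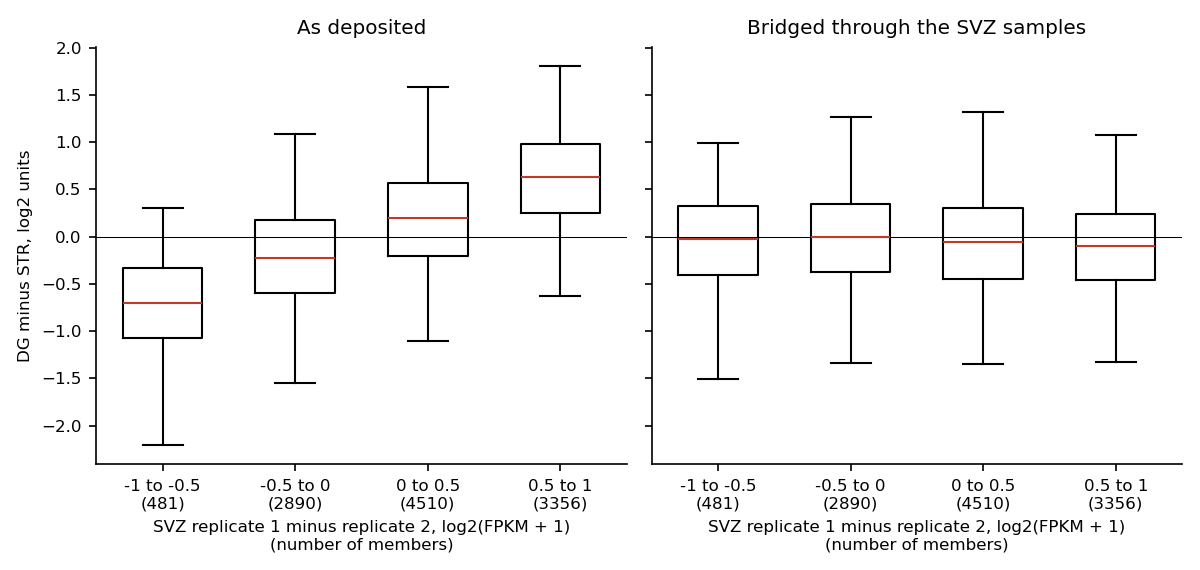
Boxes show the quartiles and median of the DG minus STR difference in log2 units, with whiskers at the 5th and 95th percentiles, for members grouped by the gap between the SVZ replicates (x axis, number of genes in brackets). As deposited, on the left, the medians run from -0.70 to 0.63, and after bridging through the SVZ samples, on the right, from -0.094 to -0.0066.

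A bridged difference, DG minus SVZ replicate 1 less STR minus SVZ replicate 2, was therefore computed for every member. Bridged, 219 genes were at least 2 units higher in the DG (1.95%) and 239 lower (2.13%), so that the share of higher genes among those past 2 units was 47.8% in place of 61.1%. At 1 unit or more, 782 were higher (6.96%) and 990 lower (8.81%). Of the 321 higher genes 204 stayed past 2 units when bridged, as did 171 of the 204 lower genes. Rescaling the libraries to a common median ratio gave 254 higher and 280 lower (47.6% higher), and to a common upper quartile 209 and 335 (38.4%). These scalings moved the median member from 0.19 to -0.061 and to -0.22. For this reason list medians below are given relative to the median member, and each list's counts at 1 unit or more are followed by the bridged counts. Each list's counts are to be read beside the shares over all members, 13.3% higher and 7.52% lower, or 6.96% and 8.81% bridged.

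The SVZ and OB samples were set beside the DG and the STR at the genes at least 2 units apart. Both SVZ samples were nearer to the STR than to the DG for 276 of the 321 higher genes and for 187 of the 204 lower genes. The same share over all members was not computed, and the selection rule itself keeps the 2 SVZ samples close to each other. The counts therefore describe these genes only. The OB was nearer to the STR for 167 of the higher genes and 79 of the lower genes, again with no share over all members computed. Of the higher genes 57 were under 1 FPKM in both SVZ samples, where a low level alone keeps the gap small, as were 2 of the lower genes. Over all 11237 members the number was 402. The DG library listed 16725 of 37142 transcripts at 0, against 9564 to 10807 in the other 4 libraries. Among its zeros were 30 of the 204 lower genes, and 5 of the 321 higher genes were at 0 in the STR. Over all 11237 members, 86 were at 0 in the DG and 16 in the STR, so zeros were concentrated among the genes past 2 units.

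The 12 largest differences each way, among members at 5 FPKM or more in the higher region, are led by genes of synapses, transcription and signalling. C1ql2 (chromosome 1, 122237159 to 122239751), a secreted C1q-related protein of mossy fibre synapses, was listed at 217 FPKM in the DG, 0.322 in the STR, 0.705 and 0.225 in the SVZ samples and 1.15 in the OB, a difference of 7.36. Neurod2 (chromosome 11, 98186731 to 98190959), a basic helix-loop-helix factor of excitatory neurons, was at 235 in the DG, 1.03 in the STR, 0.139 and 0.768 in the SVZ and 3.16 in the OB, a difference of 6.86. Prdm8 (chromosome 5, 98609888 to 98616467), a transcriptional repressor, stood at 146 in the DG, 0.350 in the STR, 0.255 and 0.165 in the SVZ and 0.322 in the OB, a difference of 6.76. These genes were high in the DG alone among the 5 libraries. Bhlhe22, a factor that acts with Prdm8 in developing neurons, was also highest in the DG, with 106 FPKM in the DG, 0.334 in the STR, 0.695 and 0.391 in the SVZ and 1.43 in the OB, a difference of 6.33.

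Some of the DG genes were shared with the olfactory bulb. Grm2 (chromosome 9, 106546866 to 106558440), a presynaptic group II metabotropic glutamate receptor, was at 118 FPKM in the DG and 103 in the OB, but at 0.312 in the STR and 0.866 and 0.480 in the SVZ, a difference of 6.50. Nrn1, a GPI-anchored protein linked to neurite growth, was at 266 in the DG, 42.0 in the OB, 4.08 in the STR and 0.601 and 0.970 in the SVZ (5.72). Adra1d, an alpha-1 adrenergic receptor, was at 52.4 in the DG, 19.998 in the OB, 0.216 in the STR and 0.128 and 0.416 in the SVZ (5.46). The OB thus lay close to the DG for Grm2 and between the regions for Nrn1 and Adra1d. Slc30a3, the transporter that loads zinc into synaptic vesicles, was at 162 in the DG, 1.53 in the STR, 0.389 and 0.591 in the SVZ and 11.3 in the OB (6.01). Lct, the intestinal lactase, was at 54.5 in the DG and between 0.0172 and 0.0505 in the other 4 libraries (5.77).

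In the other direction stood Scn4b (chromosome 9, 44947125 to 44962144), a sodium channel beta subunit of medium spiny neurons. It was at 2.86 FPKM in the DG, 575 in the STR, 330 and 314 in the SVZ and 1.80 in the OB, a difference of -7.22. The SVZ samples stood near the striatal level and the DG and OB far below it. Meis2 (chromosome 2, 115687000 to 115890794), a homeobox factor of the ventral telencephalon, was at 1.35 in the DG, 135 in the STR, 171 and 143 in the SVZ and 207 in the OB (-5.86). Here the OB was the highest library and the DG alone was low.

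Penk, the enkephalin precursor, was at 12.4 FPKM in the DG, 1213 in the STR, 1581 and 1684 in the SVZ and 230 in the OB (-6.50). Drd1a, the D1 dopamine receptor, was at 2.13 in the DG, 158 in the STR, 108 and 119 in the SVZ and 1.204 in the OB (-5.66). Tac1, the precursor of substance P, was at 5.13 in the DG, 212 in the STR, 223 and 235 in the SVZ and 6.79 in the OB (-5.12). Products of both striatal output pathways were thus low in the DG, with Penk at an intermediate level in the OB. Cd4, best known as a T-cell coreceptor, was at 0.119 in the DG, 42.0 in the STR, 42.9 and 21.98 in the SVZ and 0.437 in the OB (-5.27). Atp2a2, the calcium pump of the endoplasmic reticulum, was listed at 0 in the DG but at 81.5 in the STR, 26.7 and 33.0 in the SVZ and 89.8 in the OB, and a value of 0 in these files can be a failed estimate, so no difference is given for it.

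**Figure D3:**
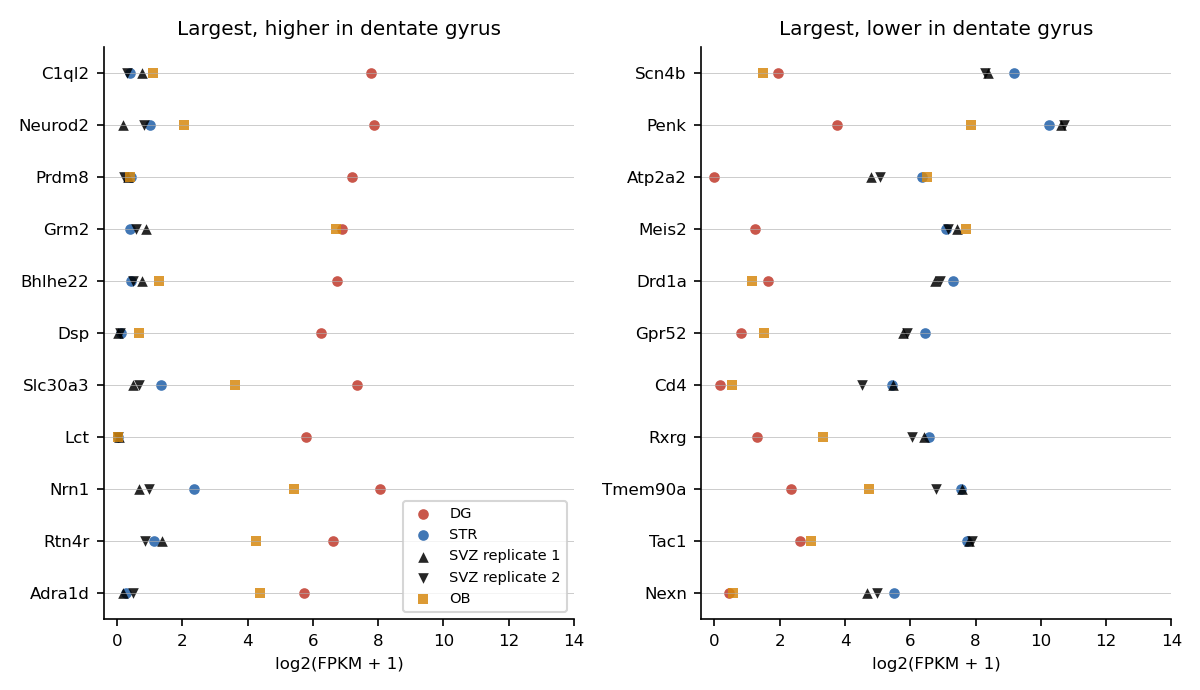
Of the 12 members with the largest difference each way, 11 are plotted by library on a log2(FPKM + 1) axis, with 1 point for each of the 5 libraries. In the left panel DG points stand apart on the right, with the OB near them for Grm2, and in the right panel the striatal and both SVZ points stand together, with Atp2a2 at 0 in the DG.

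Markers of dentate granule neurons were higher in the DG as a group. Of 30 listed genes 26 were members, and 22 of them were at least 1 unit higher and 0 lower, or 20 and 0 when bridged, with a median of 2.02 relative to the median member. C1ql3, a relative of C1ql2, was at 172 FPKM in the DG, 3.60 in the STR, 2.68 and 3.14 in the SVZ and 2.98 in the OB (5.24). Sema5a, a transmembrane semaphorin, was at 67.1 in the DG, 2.74 in the STR, 3.39 and 3.31 in the SVZ and 15.1 in the OB (4.18). Dsp, the desmosomal plaque protein desmoplakin, was at 75.8 in the DG, 0.0967 in the STR, 0.0228 and 0.0634 in the SVZ and 0.579 in the OB (6.13). In each of these the DG was the highest of the 5 libraries. Jun, a component of the AP-1 transcription factor, was named through the list of immediate early genes, described below. It was at 116 in the DG, 8.65 in the STR, 28.4 and 14.1 in the SVZ and 45.3 in the OB (3.60), and its difference was 2.64 bridged.

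Not every granule marker separated the regions. Calb1, the calcium buffer calbindin, was at 111 FPKM in the DG and 124 in the STR, with 72.9 and 95.7 in the SVZ and 3.54 in the OB. Pdzd2, a protein with several PDZ domains, was at 23.5 and 22.5 in the DG and STR. Cdh9, a cadherin, was at 23.4 and 19.2. Medium spiny neurons are also known to contain calbindin. The listed genes Plk5, Fam163b and Rasl10a were left out by the SVZ limit with differences of 2.85, 4.17 and 3.29.

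Transcription factors of excitatory neurons were mostly higher in the DG. Of 34 members 22 were at least 1 unit higher in the DG and 2 lower, 20 and 2 bridged, with a median of 1.33 relative to the median member. Neurod1, which acts in newly formed granule neurons, was at 32.3 FPKM in the DG, 0.0358 in the STR, 0.0593 and 0 in the SVZ and 4.81 in the OB (5.01). Emx1, a homeobox factor of the dorsal telencephalon, was at 24.3 in the DG, 0.249 in the STR, 0.670 and 0.564 in the SVZ and 5.77 in the OB (4.34). Nr3c2, the mineralocorticoid receptor of hippocampal neurons, was at 58.9 in the DG and 10.01 in the STR (2.44), and Nr2f1, an orphan nuclear receptor, at 27.2 and 3.48 (2.65).

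Genes known from CA pyramidal and cortical neurons were also higher in the DG library, although the list is mixed. Of 22 members 12 were at least 1 unit higher and 5 lower, or 8 and 4 bridged, with a median of 0.87 relative to the median member. Neurod6, a factor of pyramidal neurons, was at 57.4 FPKM in the DG, 2.49 in the STR, 0.174 and 1.08 in the SVZ and 0.797 in the OB (4.07). Tbr1, a T-box factor of cortical projection neurons, was at 27.6 in the DG, 1.99 in the STR, 0.277 and 1.28 in the SVZ and 8.06 in the OB (3.26). Pou3f1, a POU factor, went the other way, with 1.07 in the DG and 24.0 in the STR (-3.59). The list summed to 5949 FPKM in the DG, 1693 in the STR, 2558 and 1522 in the SVZ and 1879 in the OB, over all its 30 genes. The part of other hippocampal or cortical neurons in the DG library's excitatory genes was not tested.

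Markers of striatal projection neurons were lower in the DG as a group. Of 40 listed genes 31 were members, 28 of them at least 1 unit lower and 0 higher, or 29 and 0 bridged, with a median of -4.22 relative to the median member. Of the 31 members 5 were listed at 0 in the DG and none in the STR. Gpr52, a Gs-coupled orphan receptor, was at 0.755 FPKM in the DG, 86.1 in the STR, 54.4 and 58.3 in the SVZ and 1.89 in the OB (-5.63). Rxrg, the retinoid X receptor gamma, was at 1.49 in the DG, 93.7 in the STR, 84.2 and 65.7 in the SVZ and 8.95 in the OB (-5.25). Arpp21, a cyclic AMP-regulated phosphoprotein, was less extreme, with 61.6 in the DG, 620 in the STR, 580 and 595 in the SVZ and 162 in the OB (-3.31). Rasd2, a small GTPase known as Rhes, was at 58.7 in the DG, 472 in the STR, 453 and 246 in the SVZ and 60.5 in the OB (-2.98). These genes shared a striatal level in both SVZ samples.

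A few genes used as striatal markers were less than 1 unit apart as deposited. Bcl11b, a zinc finger factor known as Ctip2, was at 62.5 FPKM in the DG, 66.2 in the STR, 63.5 and 67.2 in the SVZ and 33.7 in the OB (-0.08). Pdyn, the dynorphin precursor, was at 21.9 in the DG, 31.2 in the STR, 133 and 116 in the SVZ and 2.23 in the OB (-0.49). Zfp503, a zinc finger factor, was at 3.52 and 5.20 (-0.45, but -1.16 bridged). Granule neurons are known to make dynorphin and Bcl11b. In all, 9 listed genes were left out by the SVZ limit, among them Drd2, the D2 dopamine receptor, at -5.48, Adora2a, an adenosine receptor, at -5.78, and Ppp1r1b, the dopamine-regulated phosphatase inhibitor DARPP-32, at -4.86. These 3 are of the indirect pathway or of both pathways, so the genes kept here include the D1 receptor but not the D2 receptor.

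Transcription factors of the striatal lineage were lower in part. Of 32 members 13 were at least 1 unit lower in the DG and 3 higher, or 16 and 2 bridged, with a median of -0.93 relative to the median member. Foxp2, a forkhead factor, was at 0.0208 FPKM in the DG, 17.1 in the STR, 24.0 and 22.7 in the SVZ and 4.74 in the OB (-4.15). Six3, a homeobox factor, was listed at 0 in the DG, 31.0 in the STR, 42.7 and 35.7 in the SVZ and 0.210 in the OB. Dlx6, a homeobox factor of GABA neurons, was at 0.583 in the DG, 24.8 in the STR, 20.2 and 20.9 in the SVZ and 26.2 in the OB (-4.03). Dlx1, of the same family, was at 6.58 in the DG and 2.50 in the STR but at 54.9 and 39.96 in the SVZ and 167 in the OB (1.12). The Dlx genes therefore had different orders, with Dlx6 at a striatal level in 4 libraries and Dlx1 high in the SVZ and OB.

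**Figure D4:**
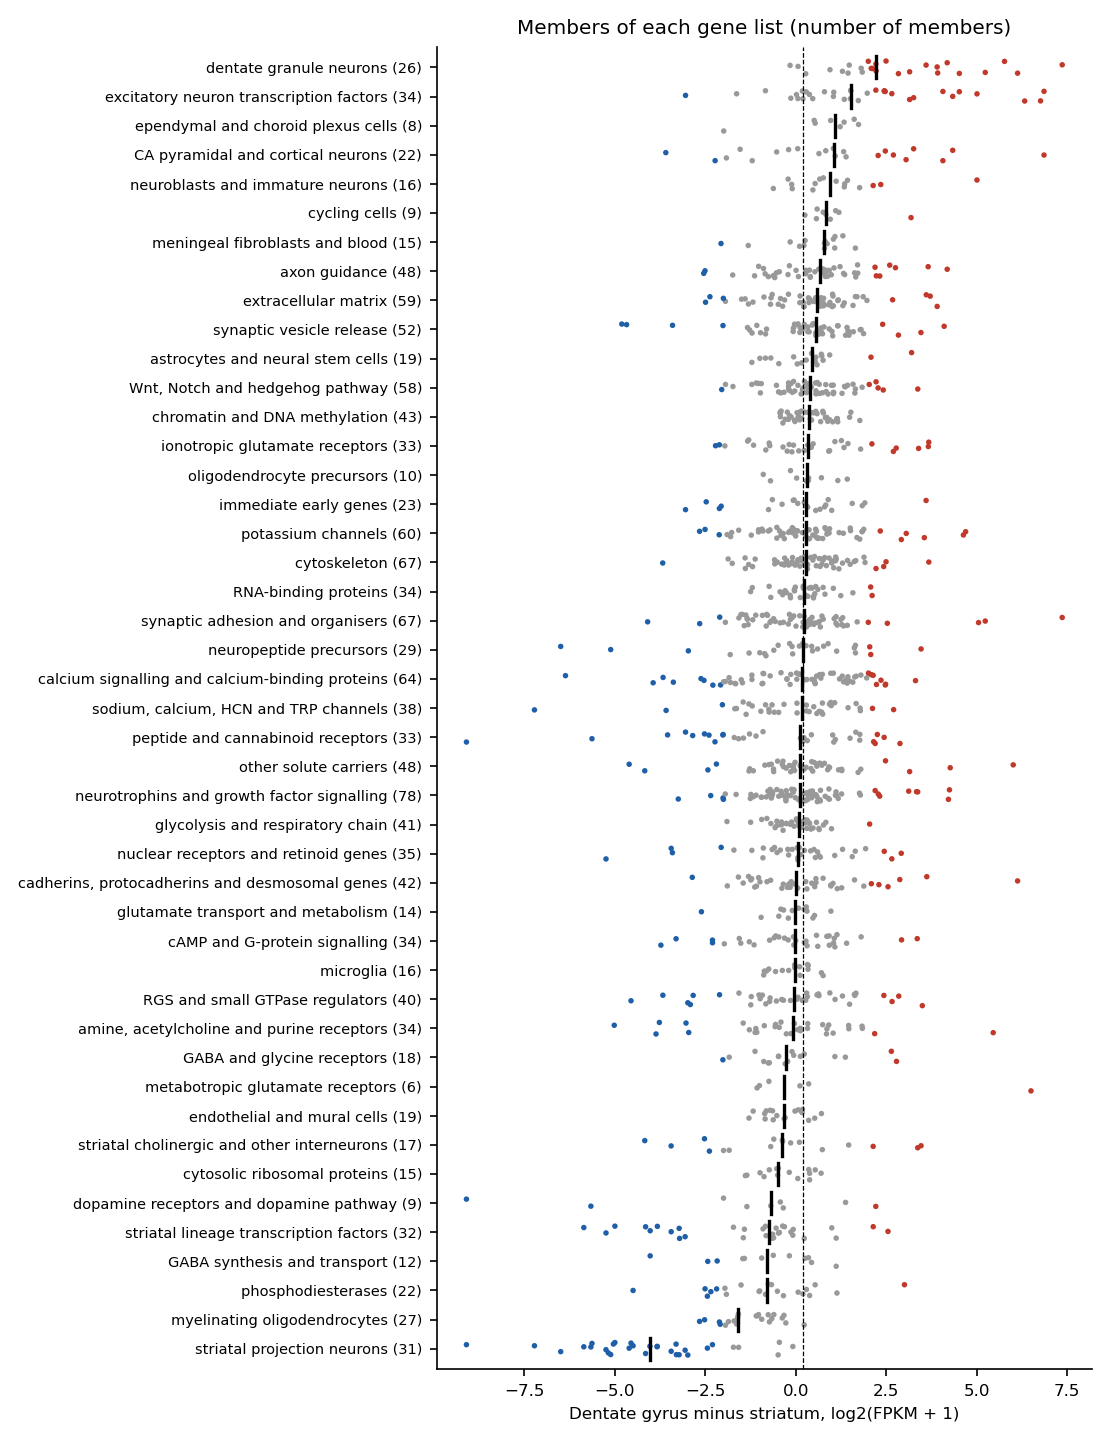
Each row is a gene list with its number of members, each point a member placed by its DG minus STR difference in log2(FPKM + 1), and the black bar the list's median. Points are red at 2 units or more, blue at -2 or less and grey between, and the dashed line is the median of all members, 0.19, with the granule list at the top and the striatal projection list at the bottom.

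Retinoid and nuclear receptor genes lay on both sides. Of 35 members 8 were at least 1 unit higher and 6 lower, or 8 and 5 bridged, with a median of -0.13 relative to the median member that changed sign in 1 of the alternative settings. Rarb, the retinoic acid receptor beta, was at 4.56 FPKM in the DG, 59.5 in the STR, 72.6 and 64.6 in the SVZ and 4.52 in the OB (-3.44). Crabp1, which binds retinoic acid in the cytosol, was at 0.458 in the DG and 14.5 in the STR (-3.41). Cyp26b1, which degrades retinoic acid, was at 12.3 in the DG, 0.758 in the STR, 0.379 and 0.330 in the SVZ and 0.813 in the OB (2.91). A receptor and a binding protein were thus higher in the STR, and a degrading enzyme higher in the DG. Retinoid genes of the list did not divide by function throughout. Stra6 was at 7.60 in the DG and 1.26 in the STR (1.93, and 1.40 bridged), and Aldh1a1 at 55.6 and 36.3 (0.60, and 1.03 bridged).

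Immediate early genes, which neurons switch on after activity, lay on both sides. Of 23 members 4 were at least 1 unit higher and 4 lower, with the same counts bridged. The median was 0.10 relative to the median member, and its sign turned in 2 of the alternative settings. Egr1, a zinc finger factor, was at 27.1 FPKM in the DG, 231 in the STR, 244 and 265 in the SVZ and 158 in the OB (-3.05). Nr4a1, an orphan nuclear receptor, was at 11.4 in the DG, 51.0 in the STR, 167 and 97.5 in the SVZ and 131 in the OB (-2.06). The 4 higher genes were Jun (3.60), given above, Atf3, Btg2 and Nr4a2. Atf3 was at 3.96 in the DG and 0.322 in the STR (1.91), Btg2 at 11.1 and 2.40 (1.84) and Nr4a2 at 10.9 and 3.03 (1.56). Arc, a synaptic capsid-like protein, was at 56.3 and 47.7 in the DG and STR (0.23), and Egr3 at 60.0 and 63.1 (-0.07). Egr1 and Egr3, of one family, therefore differed in this comparison.

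Genes of GABA synthesis and transport were lower in the DG in part. Of 12 members 5 were at least 1 unit lower and 1 higher, or 6 and 0 bridged, with a median of -0.97 relative to the median member. The list also holds Dlx homeobox factors, given above. The 1 higher gene was Dlx1 (1.12), and Dlx6 (-4.03) was among the lower genes. Slc32a1, the vesicular GABA transporter, was at 26.9 FPKM in the DG, 125 in the STR, 194 and 112 in the SVZ and 245 in the OB (-2.17). Abat, which degrades GABA, was at 54.2 in the DG and 151 in the STR (-1.47). Gad1, a GABA-synthesising enzyme, was at 105 and 202 (-0.94). Among 14 members of glutamate transport and metabolism 0 were at least 1 unit higher and 1 lower, bridged as well. The 1 gene was Slc17a8, the vesicular glutamate transporter of some cholinergic and other neurons, at 0.603 in the DG and 8.77 in the STR (-2.61). The astrocytic transporters Slc1a2, at 428 and 594, and Slc1a3, at 177 and 145, were less than 1 unit apart.

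Interneuron markers differed gene by gene. Of 17 members of the list of cholinergic and other interneurons 4 were at least 1 unit higher in the DG and 6 lower, or 4 and 9 bridged, with a median of -0.57 relative to the median member that ran from -0.99 to -0.17 over the alternative settings. Chat, which makes acetylcholine, was listed at 0 in the DG, 9.90 in the STR, 7.89 and 4.08 in the SVZ and 0.0432 in the OB. Slc5a7, the choline transporter, was likewise at 0 in the DG and at 17.1 in the STR. Striatum contains cholinergic interneurons and the dentate gyrus receives its acetylcholine from outside. Sst, the somatostatin precursor, was at 158 and 242 (-0.61), and Npy, neuropeptide Y, at 74.0 and 69.0 (0.10). Cck, the cholecystokinin precursor, was at 348 in the DG, 30.6 in the STR, 6.83 and 8.19 in the SVZ and 309 in the OB (3.46).

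Dopamine receptors went in both directions. Of 9 members of the dopamine list 4 were at least 1 unit lower in the DG and 2 higher, or 3 and 1 bridged, with a median of -0.88 relative to the median member. Drd5, the D5 receptor, which couples like D1 to adenylyl cyclase, was at 12.5 FPKM in the DG, 1.92 in the STR, 1.24 and 0.990 in the SVZ and 0.665 in the OB (2.21). It was highest in the DG of the 5 libraries, in contrast to Drd1a. Th, tyrosine hydroxylase, was at 0.311 in the DG, 4.24 in the STR, 2.50 and 1.83 in the SVZ and 200 in the OB (-1.998).

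Glutamate receptors and their partners were divided. Of 33 members of the ionotropic list 11 were at least 1 unit higher in the DG and 6 lower, or 9 and 6 bridged. The median was 0.14 relative to the median member, with the sign turned in 1 of the alternative settings. Shisa6, an auxiliary protein of AMPA receptors, was at 32.6 FPKM in the DG, 1.63 in the STR, 1.22 and 1.03 in the SVZ and 12.1 in the OB (3.67). Cnih3, another AMPA receptor partner, was at 59.1 in the DG, 4.71 in the STR, 4.09 and 2.32 in the SVZ and 33.0 in the OB (3.39). Gria2, an AMPA receptor subunit, was at 244 and 207 in the DG and STR (0.24). Cacng3 and Cacng4, auxiliary subunits of AMPA receptors, were at 36.1 and 14.7 in the DG and 92.5 and 60.0 in the STR (-1.33 and -1.96). Partners of AMPA receptors thus lay on both sides. Homer genes, which encode postsynaptic scaffolds, went in opposite ways, with Homer3 at 46.0 in the DG and 2.71 in the STR (3.66) and Homer1 at 26.02 and 116 (-2.11). Among the 6 metabotropic receptors kept, Grm2 was at least 1 unit higher and Grm3 and Grm8 lower, the same when bridged, and Grm5 was at 42.2 and 71.4 (-0.74).

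GABA and glycine receptor genes changed places by subunit. Of 18 members 4 were at least 1 unit higher and 3 lower, or 2 and 3 bridged, with a median of -0.45 relative to the median member. Gabra5, a subunit of extrasynaptic receptors in hippocampus, was at 72.8 FPKM in the DG, 10.8 in the STR, 10.9 and 15.6 in the SVZ and 52.5 in the OB (2.64). Gabbr2, a metabotropic GABA-B subunit, was at 119 in the DG, 16.4 in the STR, 21.4 and 13.4 in the SVZ and 25.6 in the OB (2.78). Its obligate partner Gabbr1 was at 252 and 263 (-0.06). Gabra3, another alpha subunit, was at 2.28 in the DG and 10.8 in the STR (-1.84). The GABA-B subunits therefore differed unequally between the regions.

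Receptors for amines, acetylcholine and purines had larger single differences. Of 34 members 7 were at least 1 unit higher in the DG and 10 lower, or 5 and 9 bridged, and the median of -0.28 relative to the median member changed sign in 2 of the alternative settings. Htr1b, a presynaptic serotonin receptor, was at 0.268 FPKM in the DG, 40.1 in the STR, 54.3 and 46.7 in the SVZ and 1.18 in the OB (-5.02). Htr2c, a Gq-coupled serotonin receptor, was at 0.420 in the DG, 19.7 in the STR, 24.3 and 25.6 in the SVZ and 1.29 in the OB (-3.86). Chrm4, the M4 muscarinic receptor, was at 5.30 in the DG, 50.6 in the STR, 62.3 and 35.2 in the SVZ and 37.2 in the OB (-3.03). Other serotonin receptors were higher in the DG. Htr1a was at 5.92 in the DG, 0.931 in the STR, 0.283 and 0.373 in the SVZ and 2.33 in the OB (1.84), and Htr4 at 8.33 and 1.06 (2.18).

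Receptors for peptides and cannabinoids were also divided. Of 33 members 12 were at least 1 unit higher in the DG and 15 lower, or 8 and 15 bridged, and 6 were listed at 0 in the DG. The median was -0.065 relative to the median member, but -1.04 with an SVZ gap under 0.5, and the median of the bridged differences themselves was -0.71. Npy1r and Npy2r, receptors for neuropeptide Y, were at 31.8 and 16.5 FPKM in the DG and 5.04 and 2.67 in the STR (2.44 and 2.25). Sstr3, a somatostatin receptor of primary cilia, was at 12.6 in the DG, 0.850 in the STR, 0.162 and 0.326 in the SVZ and 24.5 in the OB (2.88). Cnr1, the CB1 cannabinoid receptor, was at 27.4 in the DG, 162 in the STR, 21.7 and 35.2 in the SVZ and 5.83 in the OB (-2.52). Unlike most striatal genes, Cnr1 was near the DG level in the SVZ samples. Tacr1, the receptor for substance P, was at 0.258 in the DG and 13.7 in the STR (-3.54), and Oprk1, the kappa opioid receptor, was listed at 0 in the DG and at 7.27 in the STR.

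Peptide precursors differed gene by gene. Of 29 members 7 were at least 1 unit higher in the DG and 5 lower, or 5 and 9 bridged. Nts, the neurotensin precursor, was listed at 0 in the DG, 6.83 FPKM in the STR, 46.4 and 39.3 in the SVZ and 1.86 in the OB, so that the SVZ and not the STR was highest. Cort, the cortistatin precursor, was at 8.26 in the DG, 1.25 in the STR, 0.183 and 0.7799 in the SVZ and 9.02 in the OB (2.04). Pnoc, the nociceptin precursor, was at 4.002 in the DG and 0.190 in the STR (2.07). Cpe, a peptide-processing enzyme, was at 1185 and 974 (0.28), and Scg2, a granin, at 122 and 129 (-0.09).

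Signalling through cyclic AMP showed different isoforms in the regions. Of 34 members of the cyclic AMP and G-protein list 8 were at least 1 unit higher in the DG and 9 lower, or 4 and 9 bridged, with a median of -0.22 relative to the median member. Adcy1, a calcium-activated adenylyl cyclase, was at 407 FPKM in the DG, 38.8 in the STR, 19.8 and 16.7 in the SVZ and 22.9 in the OB (3.36). Adcy2 was at 65.4 in the DG, 17.9985 in the STR, 22.5 and 14.9 in the SVZ and 75.4 in the OB (1.81). Adcy5, the main striatal cyclase, was left out by the SVZ limit, with 24.9 in the DG and 315 in the STR. Gnal, the G-protein alpha subunit Golf that couples D1 receptors, was at 59.2 in the DG, 296 in the STR, 255 and 260 in the SVZ and 20.6 in the OB (-2.30). Prkar1a, a regulatory subunit of protein kinase A, was at 283 and 232 (0.28) and Gnb1, a beta subunit, at 282 and 240 (0.23).

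Phosphodiesterases, which degrade cyclic nucleotides, were lower in the DG more often than higher. All 22 listed genes at the level were members, 9 of them at least 1 unit lower in the DG and 2 higher, or 10 and 1 bridged, with a median of -0.99 relative to the median member. Pde10a, the abundant striatal enzyme, was at 19.6 FPKM in the DG, 464 in the STR, 330 and 308 in the SVZ and 14.01 in the OB (-4.50). Pde1b, which calmodulin activates, was at 93.1 in the DG, 511 in the STR, 588 and 405 in the SVZ and 92.5 in the OB (-2.44). Pde7b was at 15.6 in the DG, 93.3 in the STR, 83.6 and 94.9 in the SVZ and 10.1 in the OB (-2.51). All 3 were high in the STR and SVZ and low in the DG and OB. Pde4a was at 49.9 in the DG and 22.1 in the STR (1.14), and 110 in the OB. The list also holds Prkg1, a cyclic GMP-dependent kinase, at 16.3 and 1.16 (3.003).

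Regulators of G-protein signalling (RGS) and small GTPases were evenly divided, with 10 of 40 members at least 1 unit higher in the DG and 10 lower, or 7 and 13 bridged. The median was -0.25 relative to the median member, with the sign turned in 1 of the alternative settings. Rgs9, known for its action on striatal dopamine signalling, was at 12.4 FPKM in the DG, 314 in the STR, 382 and 236 in the SVZ and 12.8 in the OB (-4.55). Rgs4 was at 39.7 in the DG, 519 in the STR, 141 and 186 in the SVZ and 39.97 in the OB (-3.67). The SVZ samples thus lay between DG and STR for Rgs4 and at the striatal level for Rgs9. Rgs14, known from hippocampal area CA2, was at 33.8 and 21.3 (0.64). Sipa1l2, a GTPase-activating protein, was at 61.0 in the DG, 4.49 in the STR, 11.7 and 5.87 in the SVZ and 43.4 in the OB (3.50). Rasgrf2, a calcium-regulated exchange factor, was at 47.9 and 6.73 (2.66).

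**Figure D5:**
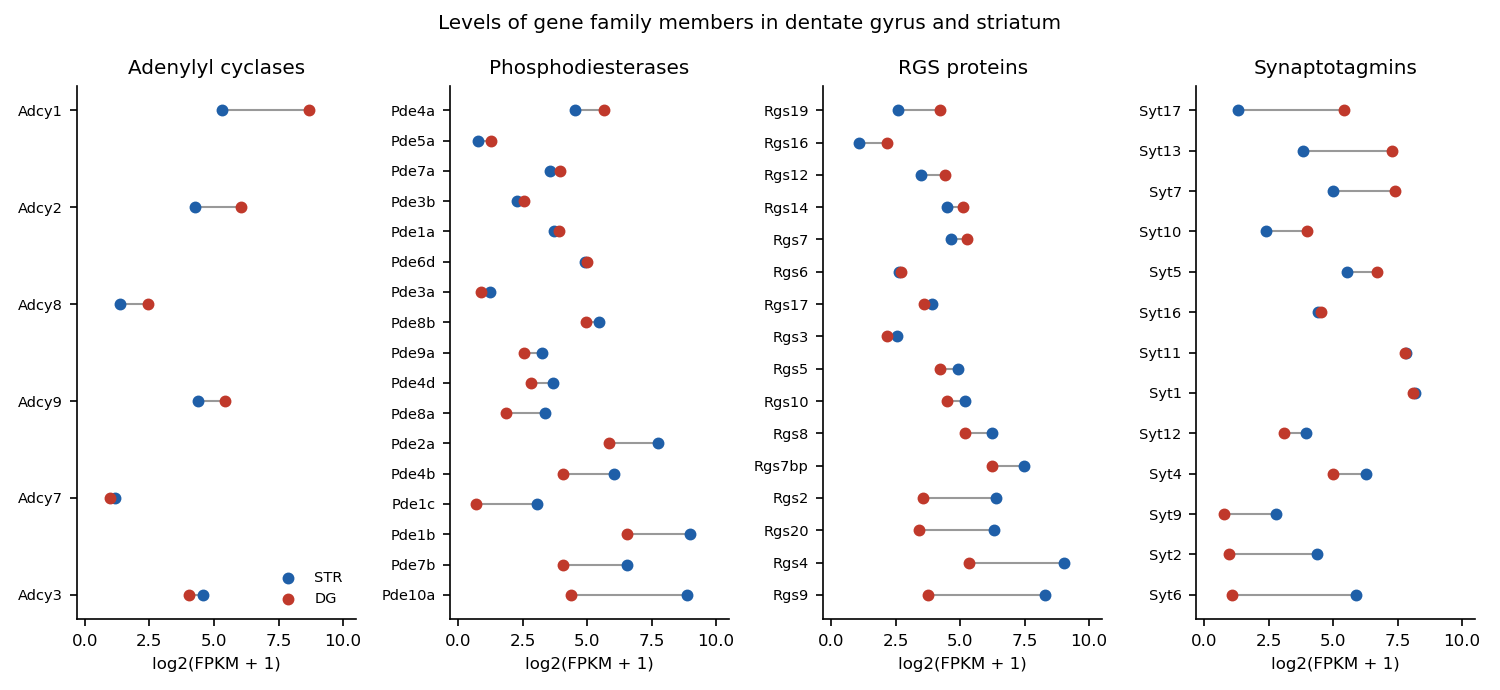
Levels in the DG (red) and the STR (blue) are joined by a line for the members of 4 gene families, on a log2(FPKM + 1) axis. Adcy1 (407 against 38.8 FPKM) and Pde10a (19.6 against 464 FPKM) have the widest gaps of their panels, Rgs9 of the RGS panel and Syt6 of the synaptotagmins.

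Calcium signalling genes were also divided. Of 64 members 21 were at least 1 unit higher in the DG and 18 lower, or 16 and 18 bridged. The median was -0.012 relative to the median member and its sign turned in 2 of the alternative settings. Camk2a, the calcium/calmodulin kinase of excitatory synapses, was at 2304 FPKM in the DG, 414 in the STR, 562 and 317 in the SVZ and 394 in the OB (2.47, and 1.65 bridged). Camk4, a nuclear kinase of the same class, was at 9.27 in the DG, 106 in the STR, 55.6 and 86.3 in the SVZ and 10.7 in the OB (-3.38). Camkk1, a kinase that activates Camk4, was at 176 and 30.7 (2.48). Ppp3ca, the calcineurin catalytic subunit, was at 878 and 834. The calmodulin kinases were thus split by isoform, and protein kinase C was split too, with Prkcd at 24.7 and 4.03 (2.35) and Prkch at 0.422 and 20.9 (-3.94). Ncald, a neuronal calcium sensor, was at 299 in the DG, 29.2 in the STR, 19.5 and 23.5 in the SVZ and 66.0 in the OB (3.31).

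Potassium channel genes included several that stood high in the DG. Of 60 members 15 were at least 1 unit higher and 10 lower, or 11 and 11 bridged. The median was 0.092 relative to the median member and its sign turned in 1 of the alternative settings. Kcng2, a modifier subunit, was at 36.8 FPKM in the DG, 0.459 in the STR, 0.532 and 0.0943 in the SVZ and 4.13 in the OB (4.69). Kcnj6, the inward rectifier GIRK2 that G proteins open, was at 48.4 in the DG, 0.992 in the STR, 0.557 and 0.946 in the SVZ and 16.6 in the OB (4.63). Kcnj3, the GIRK1 subunit that pairs with it, was at 49.6 in the DG, 5.10 in the STR, 5.62 and 4.80 in the SVZ and 50.3 in the OB (3.05). Both GIRK subunits were thus higher in the DG and OB than in the STR and SVZ. Kcnj2, the constitutive inward rectifier Kir2.1, was at 6.12 in the DG and 25.5 in the STR (-1.90). Kcnab1, a beta subunit, was at 47.4 in the DG, 209 in the STR, 142 and 147 in the SVZ and 4.18 in the OB (-2.12).

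Among 38 sodium, calcium, HCN and TRP channel members 7 were at least 1 unit higher in the DG and 9 lower, or 6 and 9 bridged. The median, -0.028 relative to the median member, turned sign in 3 of the alternative settings. Canonical TRP channels pass calcium. Trpc4 was at 22.5 FPKM in the DG, 2.61 in the STR, 2.03 and 2.20 in the SVZ and 10.498 in the OB (2.70). Trpc6 was at 18.8 and 3.56 (2.12), and Trpc5 at 8.14 and 1.67 (1.78), and not every member of this family is described here. Among the sodium channel beta subunits Scn2b was at 91.0 and 163 (-0.84), beside the wider gap of Scn4b given above.

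Synaptic organisers and vesicle genes carried some of the larger differences. Of 67 members of the adhesion and organiser list 15 were at least 1 unit higher in the DG and 14 lower, or 8 and 13 bridged, with a median of 0.037 relative to the median member whose sign turned in 2 of the alternative settings. Nptx1, a secreted pentraxin that gathers AMPA receptors, was at 404 FPKM in the DG, 11.2 in the STR, 12.7 and 11.9 in the SVZ and 37.7 in the OB (5.05). Lphn2, an adhesion receptor of the latrophilin family, was at 0.940 in the DG, 32.2 in the STR, 27.3 and 21.4 in the SVZ and 3.03 in the OB (-4.10). Lphn1, its relative, was at 131 and 92.3 (0.50). Latrophilins therefore differed by member. Of 52 vesicle release members 17 were at least 1 unit higher and 8 lower, or 10 and 8 bridged, with a median of 0.36 relative to the median member.

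Synaptotagmins, a family that includes calcium sensors of vesicle fusion, showed the isoform pattern most fully. Syt17 was at 41.3 FPKM in the DG, 1.47 in the STR, 3.50 and 1.25 in the SVZ and 8.64 in the OB (4.10). Syt13 was at 155 in the DG, 13.1 in the STR, 10.4 and 9.77 in the SVZ and 42.0 in the OB (3.46). Syt6 was at 1.10 in the DG, 57.9 in the STR, 41.0 and 60.7 in the SVZ and 72.4 in the OB (-4.81). Among these, Syt6 alone was high in every library but the DG. Syt2, a fast sensor, was at 0.969 in the DG and 19.9 in the STR (-3.41). Syt1, the most abundant, was at 271 and 285 (-0.07), and Snap25, a fusion protein of all synapses, at 1239 and 904 (0.45). Unc13c, a vesicle priming factor, was at 1.30 in the DG, 57.8 in the STR, 18.4 and 29.7 in the SVZ and 4.49 in the OB (-4.68).

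Axon guidance genes were higher in the DG more often than lower, with 15 of 48 members at least 1 unit higher and 5 lower. Bridged, the counts were 12 and 9, with a median of 0.49 relative to the median member as deposited. Nrp2 and Nrp1, the semaphorin-binding neuropilins, were at 31.0 and 41.3 FPKM in the DG and 1.53 and 5.27 in the STR (3.66 and 2.75). Plxna4, a plexin that signals with them, was at 52.1 in the DG, 7.78 in the STR, 11.3 and 9.598 in the SVZ and 10.7 in the OB (2.60). Sema3a, a ligand of neuropilin 1, was at 0.430 in the DG, 7.15 in the STR, 7.36 and 8.18 in the SVZ and 6.63 in the OB (-2.51). Plxnb3, another plexin, was at 2.56 and 6.84 (-1.14, and -1.53 bridged), so receptor genes lay on both sides. In all, 17 listed genes were left out by the SVZ limit, among them Slit1 at 5.16 and Ephb2 at 3.04.

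Cadherins and matrix genes varied by member. Of 42 cadherin, protocadherin and desmosomal members 11 were at least 1 unit higher and 10 lower, or 8 and 8 bridged. Their median, -0.18 relative to the median member, turned sign in 4 of the alternative settings. Pcdh20 was at 56.6 FPKM in the DG, 3.69 in the STR, 2.94 and 3.06 in the SVZ and 25.3 in the OB (3.62). Cdh7 was at 0.0742 in the DG, 6.81 in the STR, 2.60 and 2.10 in the SVZ and 0.604 in the OB (-2.86). Of 59 extracellular matrix members 17 were at least 1 unit higher and 8 lower, or 10 and 8 bridged, with a median of 0.38 relative to the median member. Npnt, a matrix ligand of integrin alpha 8, was at 48.0 in the DG, 2.27 in the STR, 3.76 and 1.84 in the SVZ and 4.68 in the OB (3.91). Itga8, that integrin, was at 7.88 in the DG, 0.390 in the STR, 0.184 and 0.251 in the SVZ and 0.827 in the OB (2.68). Ligand and receptor were both highest in the DG of the 5 libraries.

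Growth factors included the neurotrophins of the hippocampus. Of 78 members 15 were at least 1 unit higher in the DG and 10 lower, or 13 and 11 bridged. The median was -0.072 relative to the median member and its sign turned in 1 of the alternative settings. Bdnf was at 17.6 FPKM in the DG, 0.841 in the STR, 0.0222 and 0.107 in the SVZ and 3.09 in the OB (3.34). Ntf3, neurotrophin 3, was at 17.6 in the DG, listed at 0 in the STR and in 1 SVZ sample, and at 0.0416 in the other SVZ sample and 0.125 in the OB. Ntrk2, the receptor for Bdnf, was at 126 and 110 in the DG and STR (0.20). Il16, a cytokine precursor with a neuronal form, was at 27.0 and 0.473 (4.25), and Sorcs1, a sorting receptor, at 0.746 and 15.6 (-3.25).

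In the Wnt, Notch and hedgehog pathways 17 of 58 members were at least 1 unit higher in the DG and 6 lower, or 8 and 6 bridged, and the median was 0.21 relative to the median member. Frzb, a secreted Wnt antagonist, was at 15.3 FPKM in the DG, 0.575 in the STR, 0.567 and 0.409 in the SVZ and 55.3 in the OB (3.37). Wnt7b was at 28.2 in the DG, 4.47 in the STR, 8.07 and 4.30 in the SVZ and 8.33 in the OB (2.42, and 1.64 bridged). Wnt2 was at 0.402 in the DG, 4.39 in the STR, 8.53 and 5.99 in the SVZ and 0.176 in the OB (-1.94). Ctnnb1, beta-catenin, the shared effector, was at 202 and 161 (0.33). The Wnt ligands named here lay in both directions.

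Lists of the cell's general machinery had different counts, given here beside the shares over all members. Those shares were 13.3% higher and 7.52% lower at 1 unit or more, or 6.96% and 8.81% bridged. Of 43 chromatin and DNA methylation members 8 were at least 1 unit higher and 0 lower, but 2 and 1 bridged, and none was 2 units apart. Of 34 RNA-binding protein members 5 were higher and 2 lower, or 4 and 2 bridged, and of 67 cytoskeleton members 17 and 8, or 10 and 8 bridged. Marcksl1, an actin-linked protein of young neurons, was at 117 FPKM in the DG, 8.20 in the STR, 99.4 and 52.6 in the SVZ and 179 in the OB (3.68). Cobl, an actin nucleator, was at 1.39 in the DG, 29.5 in the STR, 22.2 and 26.3 in the SVZ and 4.66 in the OB (-3.68). Of 48 other solute carriers 9 were higher and 7 lower, or 6 and 9 bridged. Of 41 glycolytic and respiratory members 1 was higher and 2 lower, bridged as well. Of that list's 53 genes 12, and of 33 ribosomal protein genes 18, were left out by the SVZ limit, and of the 15 ribosomal members kept 0 were higher and 2 lower, or 1 and 0 bridged. The medians relative to the median member were 0.17 for chromatin, 0.087 for the cytoskeleton and 0.044 for RNA-binding proteins, and -0.067 for solute carriers, -0.11 for glycolysis and respiration and -0.67 for ribosomal proteins. The sign turned in 2 alternative settings for RNA-binding proteins, 3 for solute carriers and 1 each for the last pair, and in none for chromatin and the cytoskeleton, and the ribosomal median ran from -1.62 to 0.32.

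Markers of other cells moved with the contrast, above all those of myelinating oligodendrocytes. Of 27 members of that list 18 were at least 1 unit lower in the DG and 0 higher, or 23 and 0 bridged, with a median of -1.80 relative to the median member. Ugt8a, which makes myelin galactolipids, was at 4.66 FPKM in the DG, 34.8 in the STR, 20.4 and 26.9 in the SVZ and 8.59 in the OB (-2.66). The list, over its 30 genes in the table, summed to 1252 in the DG, 3846 in the STR, 4050 and 3372 in the SVZ and 2147 in the OB, and none of it was at 0 in the DG or STR. Myelinated fibre bundles run through the striatum. The part of oligodendrocyte RNA in the other differences was not tested.

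Precursors of oligodendrocytes did not follow the mature cells. Of 10 members 2 were at least 1 unit higher in the DG and 0 lower, or 1 and 1 bridged. Pdgfra, their growth factor receptor, was at 10.6 and 11.8 FPKM in the DG and STR, with 11.4 and 11.6 in the SVZ and 9.67 in the OB (-0.15). Of 16 microglial members 0 were 1 unit apart as deposited and 1 was lower bridged. Of 19 endothelial and mural members 2 were lower and 0 higher, or 4 and 0 bridged. The microglial list summed to 423 in the DG and 401 in the STR, and the endothelial list to 203 and 231. Among 15 members of the list of meningeal fibroblasts and blood 5 were higher and 2 lower, or 3 and 2 bridged, with sums of 512 and 484. The medians relative to the median member were -0.22 for microglia, -0.51 for endothelial and mural cells and 0.60 for meninges and blood, the last turning sign in 1 of the alternative settings.

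Only 19 of 30 astrocyte and neural stem cell genes were members, since 11 were left out by the SVZ limit. Of the 19, 2 were at least 1 unit higher in the DG and 1 lower, or 2 and 2 bridged, and the median of 0.24 relative to the median member changed sign in 1 of the alternative settings. Hopx, a homeodomain protein of quiescent neural stem cells, was at 75.3 FPKM in the DG, 7.30 in the STR, 8.31 and 6.48 in the SVZ and 31.0 in the OB (3.20). Fabp7, a fatty acid binding protein of radial glia-like cells, was at 56.0 in the DG, 12.5 in the STR, 46.9 and 27.4 in the SVZ and 702 in the OB (2.08, and 1.33 bridged). Gli3, the 1 lower member, was at 1.52 in the DG and 4.86 in the STR (-1.21, and -1.68 bridged). The most abundant members under 1 unit apart were Slc1a2 (-0.47), Slc1a3 (0.29) and Gja1 (0.75). The genes left out included Gfap, Apoe and Vim. The list summed to 5666 in the DG, 2840 in the STR, 5802 and 3154 in the SVZ, so its sums ran with the SVZ replicates.

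Neurogenic markers were modestly higher in the DG in part. Of 16 neuroblast and immature neuron members 8 were at least 1 unit higher and 0 lower, or 5 and 0 bridged, with a median of 0.75 relative to the median member. Igfbpl1, a protein of young neurons, was at 6.65 FPKM in the DG, 0.503 in the STR, 17.4 and 9.15 in the SVZ and 18.03 in the OB (2.35, and 1.49 bridged). Sox11, a factor of newborn neurons, was at 11.1 in the DG, 2.56 in the STR, 24.1 and 19.5 in the SVZ and 8.26 in the OB (1.76). Calb2, which marks immature granule neurons and bulb interneurons, was at 7.72 in the DG, 0.981 in the STR, 4.90 and 3.65 in the SVZ and 656 in the OB (2.14). The STR was the lowest of the 5 libraries for all 3. The most abundant members under 1 unit apart were Ncam1, Tubb3 and Stmn1. Ncam1 was at 100 in the DG and 63.1 in the STR (0.66), Tubb3 at 135 and 147 (-0.11, and -0.76 bridged) and Stmn1 at 120 and 129 (-0.10). Dcx, the microtubule protein doublecortin, was at 3.90 in the DG, 2.54 in the STR, 16.3 and 17.95 in the SVZ and 37.5 in the OB (0.47), a gene picked after its values were seen.

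Of 9 cycling-cell members 3 were at least 1 unit higher in the DG and 0 lower, or 1 and 0 bridged, with a median of 0.64 relative to the median member that ran from 0.33 to 1.75 over the alternative settings. Mcm6, a replicative helicase subunit, was at 21.5 FPKM in the DG, 1.47 in the STR, 16.1 and 8.99 in the SVZ and 5.50 in the OB (3.19). Its complex partner Mcm3 was at 3.22 in the DG, 1.18 in the STR, 10.51 and 4.996 in the SVZ and 1.89 in the OB (0.95, and 0.012 bridged). Top2a, a topoisomerase of dividing cells, was at 1.56 in the DG, 0.195 in the STR, 19.3 and 13.8 in the SVZ and 0.439 in the OB (1.10). Helicase subunits of one complex therefore differed in order, with Mcm6 highest in the DG and Mcm3 in the SVZ. The deposited position of Mcm6 (chromosome 1, 130228168 to 130256233) lies close to that of Lct (130181341 to 130224895). Lct was at 54.5 in the DG, and any part of its reads in the Mcm6 level was not tested. Of 8 ependymal and choroid plexus members 4 were higher and 1 lower, bridged as well. The median was 0.90 relative to the median member but turned to -0.55 when 5 FPKM was required. Those genes were mostly low outside the SVZ, such as Enkur, a cilium protein, at 2.05 in the DG, 0.305 in the STR, 17.8 and 17.4 in the SVZ and 2.00 in the OB.

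The members nearest the limits show what the rule decided. Just inside the SVZ limit were Irs2, Dok3 and Plekhg2, with gaps of 0.9995, 0.9993 and 0.9992 units and DG minus STR differences of 1.92, 0.69 and 0.37. Just outside it were Myst1, Calcoco1 and Stx1a, with gaps of 1.0019, 1.0020 and 1.0021 and differences of 1.23, 0.69 and 1.72. At the level minimum Pgf, Slc37a2 and C8g were inside with 1.006, 1.007 and 1.007 FPKM in the higher region, and Gm13157, Slc2a9 and Agbl3 outside with 0.9991, 0.9990 and 0.9989. The 1765 genes left out by the SVZ limit had a median difference of 0.92, with 140 at least 2 units higher in the DG and 119 lower. Before that limit, 461 of the 13002 genes at the level were at least 2 units higher (3.55%) and 323 lower (2.48%). At 1 unit or more the counts were 2288 higher (17.6%) and 1087 lower (8.36%).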

How the data were processed

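The deposited expression table holds FPKM values that the authors computed for 37142 transcripts in 5 libraries. The submitters' processing notes list TopHat 1.2.0, Cufflinks 1.0.0 and CASAVA, with mm9 as the build, but not what each did. Sequencing depth is unknown, since FPKM values carry no read counts and whole reads could not be recovered from them. No label says which libraries had paired reads or kept the strand, so reads of overlapping genes cannot be told apart. The deposited file of noncoding transcript structures was not used.

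Values of 25975 coding transcripts were summed by symbol to 20340 genes with Python 3.11.15, pandas 2.3.3 and numpy 2.4.6. Differences used a pseudocount of 1, and no test was run. The calls by size and the SVZ limit were checked on simulated data, and the medians were not. The members and the 45 lists (1868 entries, 1329 distinct members, 19 symbols matched through synonyms and 16 not found) were chosen with earlier results of these data known. Named genes were the 12 largest differences each way at 5 FPKM or more, up to 4 each way of each list at 1 unit or more, the 3 most abundant of each list under 1 unit, and the 3 on each side of each limit, of which some are not reported here. Examples outside this rule are Dcx and the genes named as left out by the SVZ limit, picked with their values in view. The alternatives changed the pseudocount, both limits, the scaling, the difference and the summing of transcripts.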

Additional observations from a re-analysis of the deposited data

How the results depend on the processing

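As reported, 321 members were at least 2 units higher in the DG and 204 lower, with a median difference of 0.19. A pseudocount of 0.1 gave 584 and 408. An SVZ gap under 0.5 gave 187 higher genes, and no limit on the gap gave 323 lower genes. Upper quartile scaling gave 209 and 335 with a median of -0.22. The median was -0.061 after median ratio scaling, -0.051 after bridging through the SVZ samples and 0 with no level minimum. With 5 FPKM required, the median of the ependymal and choroid plexus list turned to -0.33, since fewer of its genes remained. The cause of the other shifts was not tested. Chosen after seeing the data, leaving out members listed at 0 gave 316 and 174, and leaving out those under 1 FPKM in both SVZ samples gave 264 and 202. Of 259 named genes at least 1 unit apart, 0 changed sign in the planned settings and 31 came under 1 unit in at least 1 of them.

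No paired analysis was possible because the DG and the STR had 1 sample each and no test was run. Precision is limited by that and by the unknown depth. The DG and STR samples could not be left out, and without either SVZ sample neither the limit that defines the members nor the bridged difference can be computed.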
